A study of Mus musculus with 6 samples.

Results

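The zinc-finger and nuclear receptor transcription factors of the EGR, NR4A and KLF families that belong to the immediate-early response were read across 6 bulk RNA-seq libraries of mouse blood stem cells, the long-term hematopoietic kind (LT-HSCs). The 10 genes, Egr1, Egr2, Egr3, Nr4a1, Nr4a2, Nr4a3, Klf2, Klf4, Klf6 and Klf10, were taken by symbol, and all 10 were found among the 55450 genes of each library table and the 17500 genes of the table of the whole series. CD61High LT-HSCs, the 10% of the population with the most surface CD61, were set against CD61Low LT-HSCs, the 10% with the least. CD61 is integrin beta 3. Each group had 3 libraries of 5000 sorted cells. All cells came from wild-type (WT) C57/Bl6 males aged 22 to 24 months and were sorted as lineage-negative, cKit+ and Sca1+ cells that were CD150+ and CD48-. Sample titles tie each library to a single numbered mouse, but the sorting protocol describes pools of cells. The labels do not settle this, and the numbers are read here as 3 animals. On that reading, a fit without a block for the mouse sets a difference against the spread between animals. A fit with the block sets it against the spread of the differences within an animal.

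Immediate-early genes are transcribed within minutes of a growth factor, cytokine or stress signal without a need for new protein, mostly through ERK kinases acting on serum response factor (SRF) and through CREB and MEF2 factors at their promoters. EGR factors bind GC-rich sites with zinc fingers, NR4A factors are orphan nuclear receptors that bind DNA without a known hormone, and KLF factors bind CACCC and GC boxes. In mouse hematopoietic stem cells Egr1 and the NR4A receptors are known for restraining division, while Klf2 is known for quiescence of lymphocytes and Klf4 for monocyte differentiation.

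The start-site stretches of Nr4a1, Nr4a2, Klf2, Klf4 and Egr2 are shown because they carry matches to the sites of factors that drive this response, or to the site of the EGR factors themselves. RefSeq start-site windows were found for 7 of the 10 genes. The motifs searched on both strands in the 250 bases before each start were the CArG box bound by SRF, the cyclic AMP response element (CRE, TGACGTCA), its short core (TGACG, which every full CRE also holds), the EGR site (GCGTGGGCG or GCGGGGGCG) and the TATA box (TATAAA). Of 32851 windows before a start in the table, 1.47% held a CArG box, 1.55% a full CRE, 17.8% the short core, 3.06% an EGR site and 12.4% a TATA box. The stretches below are GRCm38.p6, 5′ to 3′ on the strand of the gene, without exonic bases, and capitals mark the matches on either strand. They lie at chr15:101266596-101266845 (plus strand, Nr4a1), chr2:57124004-57124253 (minus strand, Nr4a2), chr8:72318812-72319032 (plus strand, Klf2), chr4:55532476-55532725 (minus strand, Klf4) and chr10:67537619-67537868 (plus strand, Egr2). The Nr4a1 and Egr2 stretches each precede a start inside the annotated span of the gene, and the Egr2 stretch is 1 of several for that gene. The stretch before the annotated start of Egr2, chr10:67535249-67535474, held no match to any of the 5 motifs.
Nr4a1: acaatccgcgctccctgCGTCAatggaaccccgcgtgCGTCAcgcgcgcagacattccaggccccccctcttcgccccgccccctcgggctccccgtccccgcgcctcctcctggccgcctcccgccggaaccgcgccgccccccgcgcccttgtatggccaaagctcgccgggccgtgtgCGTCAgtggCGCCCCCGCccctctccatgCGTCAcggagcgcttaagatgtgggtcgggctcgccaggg
Nr4a2: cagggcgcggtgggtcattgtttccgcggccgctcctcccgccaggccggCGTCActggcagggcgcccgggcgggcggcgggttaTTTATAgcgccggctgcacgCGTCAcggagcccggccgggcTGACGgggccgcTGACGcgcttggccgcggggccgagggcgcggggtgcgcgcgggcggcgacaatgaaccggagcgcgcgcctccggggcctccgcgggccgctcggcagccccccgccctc
Klf2: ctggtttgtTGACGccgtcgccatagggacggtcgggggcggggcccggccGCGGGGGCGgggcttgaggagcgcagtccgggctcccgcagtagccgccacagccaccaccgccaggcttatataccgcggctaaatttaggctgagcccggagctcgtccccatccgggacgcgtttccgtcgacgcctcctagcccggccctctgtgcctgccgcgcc
Klf4: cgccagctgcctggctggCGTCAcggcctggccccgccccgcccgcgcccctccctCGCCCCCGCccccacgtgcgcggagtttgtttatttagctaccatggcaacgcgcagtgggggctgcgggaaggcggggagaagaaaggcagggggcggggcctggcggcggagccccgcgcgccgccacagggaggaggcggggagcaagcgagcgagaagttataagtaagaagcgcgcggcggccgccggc
Egr2: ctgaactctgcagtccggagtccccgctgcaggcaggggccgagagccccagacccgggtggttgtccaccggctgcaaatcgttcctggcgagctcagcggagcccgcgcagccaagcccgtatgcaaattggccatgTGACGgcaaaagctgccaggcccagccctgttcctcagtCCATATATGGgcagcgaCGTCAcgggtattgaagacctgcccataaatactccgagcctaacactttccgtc
The short CRE core occurred 4 times before Nr4a1, 4 times before Nr4a2, 2 times in the Egr2 stretch shown and 1 time each before Klf2 and Klf4. A full CRE occurred in none of the 5 stretches. An EGR site was found before Nr4a1, Klf2 and Klf4, a TATA box before Nr4a2 and a CArG box in the Egr2 stretch shown. The exon-free stretch before Klf6, chr13:5861239-5861481, held no match to any of the 5 motifs. These are matches of letters and say nothing of binding in these cells.

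Counts on genes ranged from 21354130 to 25019004 in the CD61High libraries and from 24210825 to 26398090 in the CD61Low libraries. Levels are in CPM throughout, the counts of a gene relative to all counts of its library after adjustment by TMM factors. Where a library shows no count, up to 3 counts (0.114 to 0.14 CPM before the TMM adjustment) cannot be told from 0. Of the genes that encode the gate's markers, Kit had 1538, 1086 and 1772 CPM in CD61High of mice 1, 2 and 3, against 1965, 576 and 1818 CPM in CD61Low. Cd48, which the sort selected against, had 5.55, 59.9 and 1.07 CPM in CD61High and 29.6, 130 and 1.68 CPM in CD61Low. The 20 neutrophil markers took 0.0584% to 7.77% of gene counts in CD61High and 0.239% to 12.5% in CD61Low, with the highest shares in both libraries of mouse 2. B lineage markers took 0.024% to 0.198% in CD61High and 0.064% to 0.302% in CD61Low. In the edgeR fit with a block for the mouse, the platelet and megakaryocyte genes Itga2b, Gp5 and Gp9 rose by log2 2.42, 1.5 and 1.42, at adjusted p of 0.0308, 0.0436 and 0.0436. Procr and Sult1a1, from the list of LT-HSC identity genes, fell by 1.25 and 1.52 on the log2 scale, both at an adjusted p of 0.0436. Without a block none of these 5 passed. The 12 LT-HSC identity genes had a blocked median of -0.16, with 6 lower and 1, Ctnnal1 (0.99), higher in every mouse. The 12 tested platelet and megakaryocyte genes had a blocked median of 1.24, with 7 higher and 2 lower in every mouse. Of all 15610 genes tested, 3858 were lower and 3220 higher in every mouse.

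The single comparison asks how these factors differ between LT-HSCs at the extremes of surface CD61 in old mice. Egr1, Nr4a1, Klf2, Klf4 and Klf6 were lower in CD61High than in CD61Low in all 3 mice. Egr1 stood at 464 ± 114 CPM in CD61High and 1273 ± 391 CPM in CD61Low, and Klf6 at 113 ± 52.7 CPM and 225 ± 57.7 CPM (SD, n = 3 each). Klf10, Nr4a2, Egr2 and Egr3 did not keep a sign across the mice, and Nr4a3 was too scarce to test.

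How these differences stand against their spread depends on the fit, since the block takes out the level of each mouse. In edgeR without a block, 0 of the 9 tested genes passed an adjusted p of 0.05, as did 0 (0%) of all 15610 genes; 1023 of them had an unadjusted p under 0.05. Once the mouse entered the fit as a block, 0 of the 9 passed, against 40 genes (0.256%) of all. At an unadjusted p under 0.05 and lower in CD61High, the fit without a block held 3 of the 9 (Egr1, Nr4a1 and Klf6), against 3% of all genes. The blocked fit held 5 of the 9 (Egr1, Nr4a1, Klf2, Klf4 and Klf6), against 12.8%. These 5 were also the ones lower in every mouse, which 24.7% of all genes were. Egr1, Nr4a1 and Klf6 had every CD61High library below every CD61Low library, as did 5.71% of all genes.

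Other tools gave other counts. DESeq2 without a block called 1 of the 9 as lower, Egr1, against 0.736% of all genes it tested, and with the block it called the same 5 that were lower in every mouse, against 7.87%. Limma voom with the block called Egr1, Klf2 and Klf6, against 2.33%, and without a block it called none and put 1139 genes under an unadjusted p of 0.05. The calls in edgeR changed without mouse 2. Once both its libraries were left out, edgeR without a block called Klf6 of 8 tested, against 0.405% of genes lower, and with the block it called Egr1, Klf2 and Klf6, against 2.93%. Without mouse 1 or without mouse 3, edgeR called 0 of the named genes, with or without the block. Across all genes those fits called 0, except 7 without mouse 3 and with the block. In bulk samples, fewer cells of a type and less RNA per cell cannot be told apart.

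**Figure D1:**
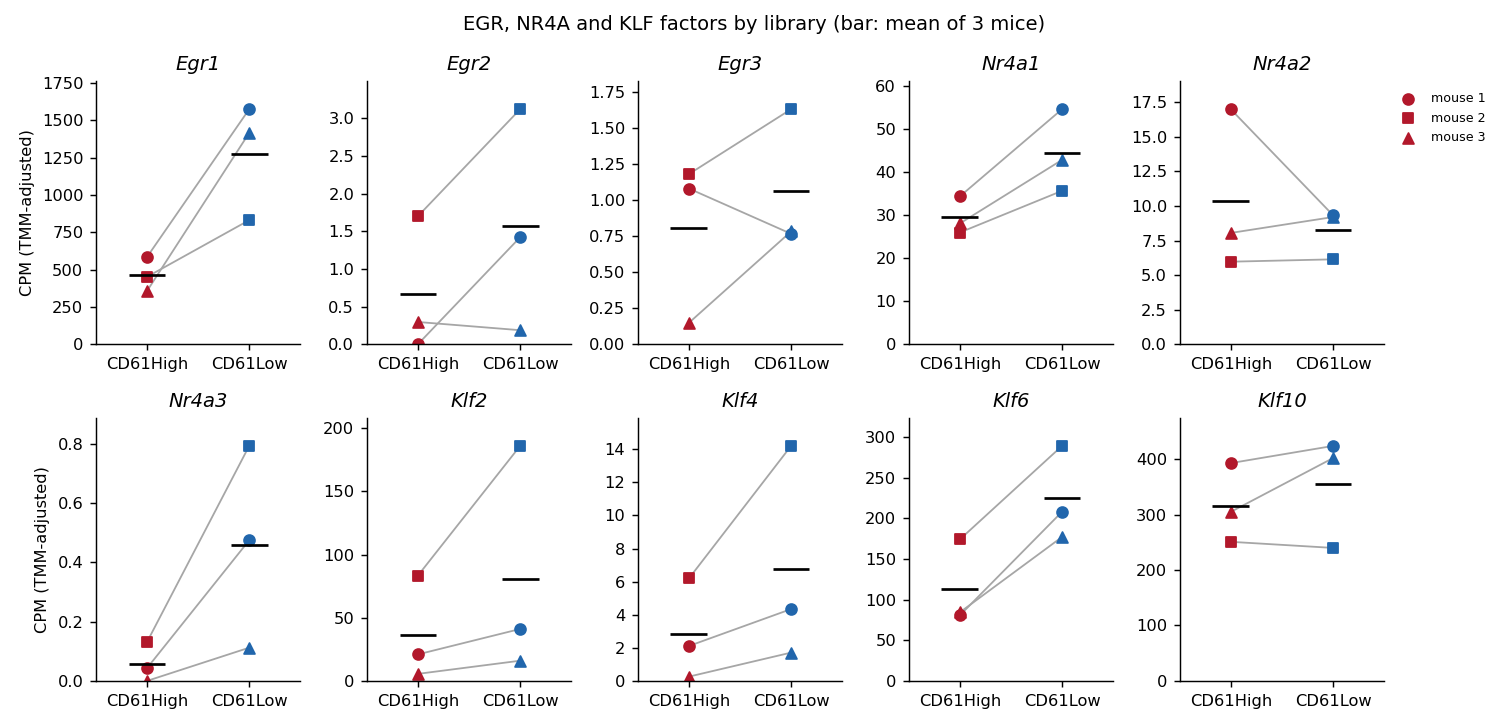
TMM-adjusted CPM (y axis) of the 10 genes in CD61High (red) and CD61Low (blue) libraries (x axis), with 1 marker shape per mouse, grey lines joining the libraries of a mouse and black bars at the mean of 3 mice. The 3 CD61High libraries of Egr1 sit between 356 and 584 CPM and its CD61Low libraries between 831 and 1574 CPM, while Klf10 runs from 251 to 393 CPM and from 240 to 424 CPM.

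Egr1 (ENSMUSG00000038418.7, GRCm38 chromosome 18, 34859823 to 34864984, plus strand) encodes the founding member of the EGR family. It had 584, 451 and 356 CPM in CD61High of mice 1, 2 and 3, against 1574, 831 and 1415 CPM in CD61Low. Every CD61High library was below every CD61Low library, with the gap narrowest in mouse 2, whose CD61Low library was the lowest of its group. The log2 difference was -1.43, -0.88 and -1.99 in mice 1, 2 and 3. The log2 fold change was -1.46 (SE 0.32) without a block, at an adjusted p of 0.652 in edgeR's quasi-likelihood test. The block moved it to -1.43 (SE 0.23, adjusted p = 0.0605). In the blocked fit of mice 1 and 3 alone it was -1.73 (SE 0.16, adjusted p = 0.0189). The blocked fits without mouse 1 and without mouse 3 gave -1.44 (adjusted p = 0.37) and -1.16 (adjusted p = 0.161). DESeq2 gave -1.47 (SE 0.33, adjusted p = 0.00234) without a block.

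Egr2 (ENSMUSG00000037868.15, chromosome 10, 67535475 to 67542188, plus strand) and Egr3 (ENSMUSG00000033730.4, chromosome 14, 70077203 to 70082614, plus strand), known from T cell anergy and hindbrain or muscle spindle development, were rare. Egr2 had 0, 39 and 8 counts in CD61High of mice 1, 2 and 3, against 39, 63 and 5 counts in CD61Low. Only mice 1 and 2 were lower in CD61High, and the groups overlapped. The log2 difference of -4.21 in mouse 1 rests on a library at 0 and moves with the prior count. In the blocked fit the log2 fold change of Egr2 was -1.45 (SE 1.13, adjusted p = 0.509). Egr3 had 25, 27 and 4 counts in CD61High, against 21, 33 and 21 counts in CD61Low. Its differences of 0.45, -0.45 and -1.91 ran both ways, and its blocked log2 fold change was -0.63 (SE 0.65, adjusted p = 0.617). At counts this low the standard errors of Egr2 and Egr3 exceed that of Egr1, and a difference of the size seen for Egr1 could go undetected in either.

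The EGR factors are held in check by the NAB corepressors. Nab1 had 176, 152 and 215 CPM in CD61High of mice 1, 2 and 3, against 178, 135 and 205 CPM in CD61Low, so its libraries overlapped almost completely (blocked log2 fold change 0.07, SE 0.12, adjusted p = 0.782). Nab2, which shares 42.2% of its exon sequence with other genes, had a blocked log2 fold change of -0.15 (SE 0.31, adjusted p = 0.827). Egr4, the remaining EGR gene, had 11, 6 and 1 counts in CD61High and 0, 2 and 10 counts in CD61Low, and was not tested. Of 5 genes reported as EGR1 targets, 0 passed in either direction, and their median was 0.30. Tgfb1, which encodes the cytokine TGF-beta 1, had 215, 199 and 194 CPM in CD61High and 115, 166 and 137 CPM in CD61Low (0.56, SE 0.16, adjusted p = 0.129 with the block). Its groups did not overlap, and how many of all genes were separated in this direction was not counted. Trp53 and Bmi1, a tumour suppressor and a polycomb gene, had 0.30 and -0.26.

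Nr4a1 (ENSMUSG00000023034.7, chromosome 15, 101254269 to 101274795, plus strand), which encodes Nur77, was the most abundant NR4A gene. It had 34.4, 26.0 and 28.1 CPM in CD61High of mice 1, 2 and 3, against 54.7, 35.7 and 42.9 CPM in CD61Low. The groups did not overlap, but CD61High of mouse 1 came close to CD61Low of mouse 2. Differences by mouse were -0.67, -0.46 and -0.61, and the log2 fold change was -0.59 (SE 0.22, adjusted p = 0.728) without a block. The blocked fit gave -0.58 (SE 0.15, adjusted p = 0.103). DESeq2 with the block gave -0.60 (SE 0.18, adjusted p = 0.015).

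Nr4a2 (ENSMUSG00000026826.13, chromosome 2, 57106830 to 57124003, minus strand), which encodes Nurr1, did not share this order. It had 17.0, 5.97 and 8.05 CPM in CD61High of mice 1, 2 and 3, against 9.34, 6.14 and 9.20 CPM in CD61Low. A single library, CD61High of mouse 1, stood above all others, and the remaining 5 overlapped. The blocked log2 fold change was 0.22 (SE 0.29, adjusted p = 0.707), and -0.12 (SE 0.37) once mouse 1 was left out. Nr4a3 (ENSMUSG00000028341.9, chromosome 4, 48045153 to 48086447, plus strand), which encodes Nor1, was below the filter on low counts. It had 1, 3 and 0 counts in CD61High and 13, 16 and 3 counts in CD61Low, or 4 against 32 in sum. In each mouse the CD61High library had fewer counts, although CD61High of mouse 2 and CD61Low of mouse 3 both had 3. Nr4a1 and Nr4a2 can bind DNA as heterodimers with retinoid X receptors. Of these partners, Rxra had 20.0, 21.5 and 26.9 CPM in CD61High and 57.6, 32.4 and 52.4 CPM in CD61Low, with no overlap, and a blocked log2 fold change of -1.03 (SE 0.21, adjusted p = 0.0769). Rxrb had 0.22 (SE 0.12, adjusted p = 0.361).

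Klf2 (ENSMUSG00000055148.7, chromosome 8, 72319033 to 72321656, plus strand) is known for quiescence and trafficking of lymphocytes. It had 21, 83.4 and 5.58 CPM in CD61High of mice 1, 2 and 3, against 41.1, 186 and 16 CPM in CD61Low. Mice differed far more than gates: both libraries of mouse 2 were above all others and both of mouse 3 below, so the groups overlapped. Within a mouse the log2 difference was -0.96, -1.16 and -1.51. The log2 fold change was -1.14 (SE 1.21, adjusted p = 0.934) without a block, and -1.21 (SE 0.16, adjusted p = 0.0512) with it. It stood just outside the threshold in edgeR with TMM factors and just inside with relative log expression factors, at an adjusted p of 0.0497. Without mouse 2 the blocked value was -1.25 (SE 0.21, adjusted p = 0.0428). It was -1.33 without mouse 1 (adjusted p = 0.284) and -1.06 without mouse 3 (adjusted p = 0.148). Without CD61Low of mouse 2 alone the unblocked value turned to 0.36 (SE 1.20), in a fit that kept CD61High of mouse 2 without its pair.

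Klf4 (ENSMUSG00000003032.8, chromosome 4, 55527143 to 55532466, minus strand), a reprogramming factor that also drives monocyte differentiation, followed the same order at a lower level. It had 2.11, 6.19 and 0.258 CPM in CD61High of mice 1, 2 and 3, against 4.34, 14.2 and 1.71 CPM in CD61Low. Mouse 2 was again highest and mouse 3 lowest in both gates. Its differences were -1.01, -1.18 and -2.40, and its log2 fold change was -1.24 (SE 1.20, adjusted p = 0.926) without a block and -1.50 (SE 0.39, adjusted p = 0.111) with it. CD61High of mouse 3, which gave the largest difference, had 7 counts. The unblocked value was -2.51 without CD61High of mouse 2 and -0.09 without CD61Low of mouse 2, each with the other library of mouse 2 kept unpaired. Blocked fits without mouse 1, 2 or 3 gave -1.75, -1.74 and -1.12.

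Klf6 (ENSMUSG00000000078.7, chromosome 13, 5861482 to 5870394, plus strand), which mouse embryos need for yolk sac hematopoiesis, had 80.6, 174 and 84.3 CPM in CD61High of mice 1, 2 and 3, against 208, 289 and 177 CPM in CD61Low. The groups did not overlap, although CD61High of mouse 2 nearly reached CD61Low of mouse 3. Differences by mouse were -1.37, -0.73 and -1.07. The log2 fold change was -0.99 (SE 0.37, adjusted p = 0.726) without a block and -1.06 (SE 0.16, adjusted p = 0.0552) with it. Without mouse 2 it was -1.24 (SE 0.14, adjusted p = 0.0483) without a block and -1.23 (SE 0.14, adjusted p = 0.0211) with it. Blocked fits without mouse 1 and without mouse 3 gave -0.90 (adjusted p = 0.369) and -1.05 (adjusted p = 0.177).

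Klf10 (ENSMUSG00000037465.10, chromosome 15, 38291463 to 38300706, minus strand), known as a gene induced early by TGF-beta, had 393, 251 and 305 CPM in CD61High of mice 1, 2 and 3, against 424, 240 and 402 CPM in CD61Low. The groups overlapped almost fully, and mouse 2 was lowest in both. Its log2 fold change was -0.17 (SE 0.28, adjusted p = 0.94) without a block and -0.15 (SE 0.14, adjusted p = 0.595) with it. Of 6 tested genes of the early TGF-beta response beside it, 0 passed, and the median was -0.38. At an unadjusted p under 0.05 in the blocked fit 2 were lower, against 12.8% of all genes. Smad7, an inhibitor of the pathway, had a blocked log2 fold change of -0.59 (SE 0.21, adjusted p = 0.191).

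**Figure D2:**
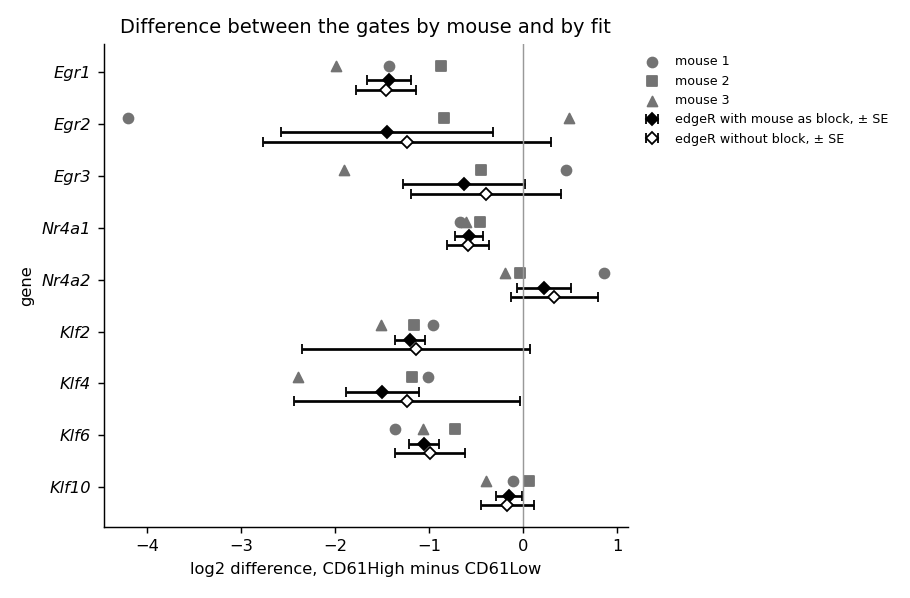
Log2 difference, CD61High minus CD61Low (x axis), of the 9 tested genes (y axis) in each mouse (grey), in edgeR with the mouse as a block (filled diamonds) and without it (open diamonds). Bars are 1 standard error, derived from the test statistic. Nr4a3 was not tested. The bars of Klf2 shrink from 1.21 without the block to 0.16 with it, while those of Egr1 are 0.32 and 0.23.

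On a scale that allows levels of different genes to be compared, CPM per kilobase of exon, the 10 genes spread widely. Egr1 was highest, at 103 ± 25.5 in CD61High and 284 ± 87.2 in CD61Low (SD, n = 3 each, here and below). Klf10 came next, at 75.7 ± 17.2 in CD61High and 85.1 ± 24.0 in CD61Low, and in CD61High the levels of Egr1 and Klf10 lay within their spread of each other. Klf6 was at 25.7 ± 12 and 51.2 ± 13.1 and Klf2 at 19.9 ± 22.3 and 43.9 ± 49.7, and these neighbours did not differ beyond their spread in either gate. Nr4a1 was at 8.41 ± 1.24 in CD61High and 12.7 ± 2.74 in CD61Low, which the wide spread of Klf2 includes. Nr4a2 (2.55 ± 1.45 and 2.03 ± 0.446) and Klf4 (0.936 ± 0.996 and 2.21 ± 2.15) overlapped, as did Egr2 and Egr3, whose means over the 6 libraries were 0.33 and 0.211. Nr4a3 was lowest, at a mean of 0.0432 over the 6 libraries.

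Marrow cell transcripts moved with some of these genes. Klf2 and Klf4 ranked the 6 libraries in the same order as the summed neutrophil markers in 6 of 6 places. How many of all genes did so was not counted. The neutrophil share was 0.612%, 7.77% and 0.0584% in CD61High of mice 1, 2 and 3, and 2.32%, 12.5% and 0.239% in CD61Low. All 20 markers were lower in CD61High in every mouse, as were 24.7% of all genes. Of those markers, only Ctsg was at 0 in a library, CD61High of mouse 3. Between the highest and the lowest library Klf2 differed 33.4-fold and Klf4 54.8-fold. Monocyte markers were also lower in CD61High in each mouse, at 0.128%, 0.913% and 0.0418% against 0.365%, 1.44% and 0.0579%, with Ms4a7 at 0 in CD61High of mice 1 and 3. The part of these cells in the levels of Klf2 and Klf4 was not tested.

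Egr1, Nr4a1, Klf6, Nr4a2 and Klf10 shared 2, 1, 1, 0 and 0 of the 6 places with the neutrophil order. Their highest library exceeded the lowest 4.42-fold, 2.1-fold, 3.58-fold, 2.85-fold and 1.77-fold. The scarce Egr2, Egr3 and Nr4a3 shared 4, 3 and 2 of the 6 places. The differences of Egr1 by mouse (-1.43, -0.88 and -1.99) had the same order of mice as the median differences of the neutrophil markers (-2.01, -0.85 and -2.59). Klf6 was highest in mouse 2 in both gates, and within CD61Low its 177, 208 and 289 CPM followed the shares of 0.239%, 2.32% and 12.5%. Within CD61High it did not follow them, with 84.3, 80.6 and 174 CPM at shares of 0.0584%, 0.612% and 7.77%. The part of these cells in the differences of Egr1, Nr4a1 and Klf6 was not tested. With the genes of the marrow marker lists taken out of the count table, the blocked log2 fold change was -1.47 for Egr1 (adjusted p = 0.0955), -1.23 for Klf2 (0.0857) and -1.09 for Klf6 (0.0955). That fit called 0 of 15496 genes and put 3052 under an unadjusted p of 0.05. Any reads of Egr1, Klf2 and Klf6 from such cells stayed in its counts, so it cannot show their part.

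**Figure D3:**
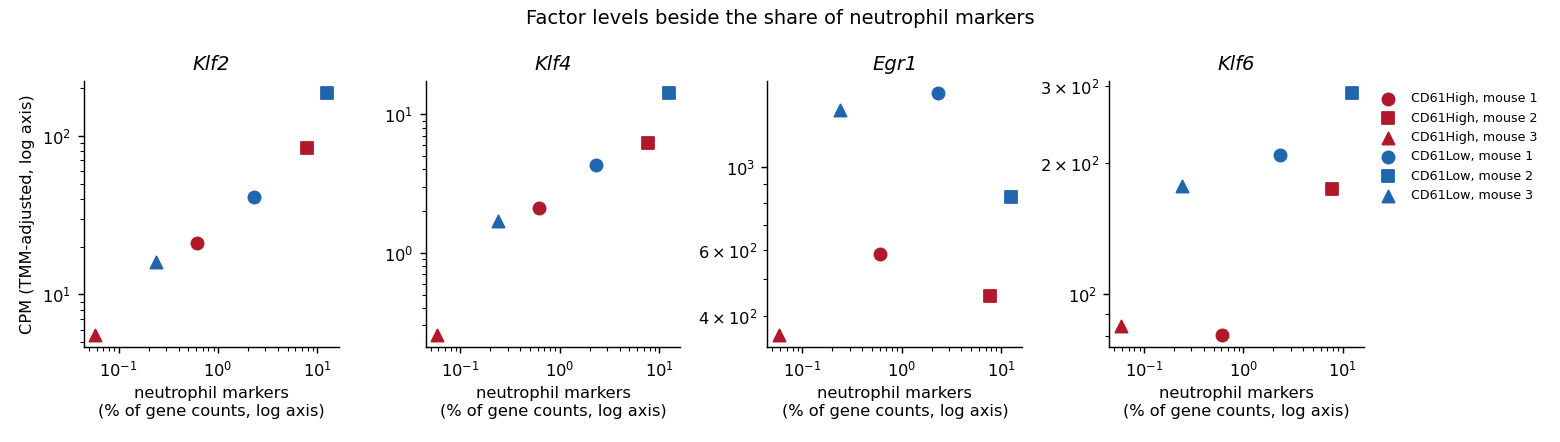
TMM-adjusted CPM (y axis, log) of Klf2, Klf4, Egr1 and Klf6 against the share of gene counts on 20 neutrophil markers (x axis, percent, log) in the 6 libraries, coloured by gate and shaped by mouse. Klf2 and Klf4 climb with the share from 0.0584% to 12.5%, while the gates of Egr1 do not overlap and those of Klf6 are 174 against 177 CPM at their closest.

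The make-up of the summed counts of the 10 genes also differed. They took 0.123%, 0.0925% and 0.0852% of gene counts in CD61High of mice 1, 2 and 3, against 0.248%, 0.123% and 0.229% in CD61Low. Within that sum Egr1 held 51.5%, 45.1% and 45.2% in CD61High and 67.9%, 51.7% and 68.5% in CD61Low, so its lowest share in CD61Low was just above its highest in CD61High. Klf10 held 34.7%, 25.1% and 38.7% in CD61High and 18.3%, 14.9% and 19.5% in CD61Low. The ratio of counts of Egr1 to Klf10, 2 abundant genes of the same libraries, was 1.48, 1.80 and 1.17 in CD61High, against 3.71, 3.46 and 3.52 in CD61Low. That ratio needs no scaling between libraries. Within CD61High it had the order of the neutrophil shares of the 3 mice, and within CD61Low it did not. The ratio of Nr4a1 to Nr4a2 was 2.02, 4.36 and 3.49 in CD61High and 5.86, 5.82 and 4.66 in CD61Low, also without overlap. The ratio of Egr1 to Fos, by contrast, was 2.58, 0.89 and 2.35 in CD61High and 2.41, 0.72 and 2.56 in CD61Low, so it separated mouse 2 from the others and not the gates. The 3 ratios were chosen after their values were seen and carry no test.

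**Figure D4:**
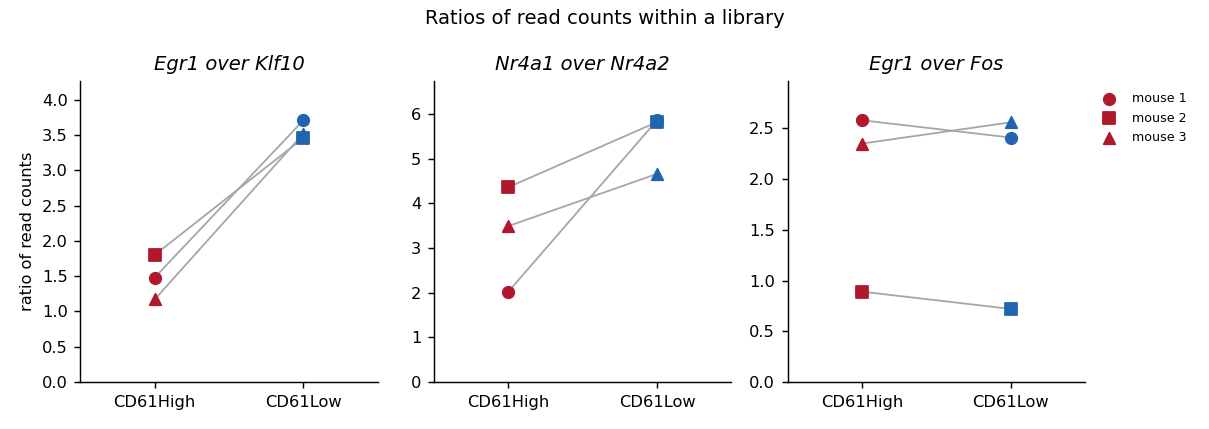
Ratio of read counts within a library (y axis) for Egr1 over Klf10, Nr4a1 over Nr4a2 and Egr1 over Fos in CD61High (red) and CD61Low (blue), with 1 marker shape per mouse and lines joining the libraries of a mouse. Egr1 over Klf10 is 1.17 to 1.80 in CD61High and 3.46 to 3.71 in CD61Low, whereas Egr1 over Fos overlaps.

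The 9 tested genes had a median log2 fold change of -1.06 in the blocked fit, beside -0.02 for all genes. Of 29 other immediate-early genes tested, 0 rose and 1 fell, against 15 and 25 of all 15610 genes, and the median was -0.62. At an unadjusted p under 0.05, 19 were lower, against 12.8% of all genes. In every mouse 21 were lower and 2 higher, against 24.7% of all genes lower and 3220 of 15610 higher. Fos, a subunit of the AP-1 factor, was the one that fell. It had 226, 504 and 152 CPM in CD61High of mice 1, 2 and 3, against 654, 1148 and 552 CPM in CD61Low, and no library crossed between the gates. Its blocked log2 fold change was -1.53 (SE 0.17, adjusted p = 0.0446), and its adjusted p was 0.726 without a block. Btg2, an antiproliferative gene, and Zfp36, which encodes an mRNA decay factor, had -1.17 (SE 0.15) and -1.31 (SE 0.19), both at an adjusted p of 0.0512, or 0.909 and 0.683 without a block. Btg2 had 57.8, 255 and 40.5 CPM in CD61High and 159, 493 and 86.7 CPM in CD61Low. Fos, Btg2 and Zfp36 were highest in mouse 2 in both gates, as were the neutrophil markers at 7.77% and 12.5% of counts, whose part in these values was not tested. These libraries are the ones that gave the values of the EGR, NR4A and KLF genes.

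Among the other KLF genes, of 11 tested, 0 passed and the median was -0.34, or -0.57 without the block. In the blocked fit 4 were lower at an unadjusted p under 0.05, against 12.8% of all genes. Klf3, a repressor, had a blocked log2 fold change of -0.76 (SE 0.15, adjusted p = 0.0721) and Klf12 -0.98 (SE 0.26, adjusted p = 0.118). Klf1, the erythroid KLF, had -1.03 (SE 0.26, adjusted p = 0.107), and erythroid markers took 0.427%, 1.79% and 0.33% of counts in CD61High and 0.554%, 3.07% and 0.314% in CD61Low of mice 1, 2 and 3.

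The upstream regulators of the response were read at the level of mRNA. Of all 15610 genes, 12.8% were lower and 1251 genes higher at an unadjusted p under 0.05 in the blocked fit. In every mouse 24.7% were lower and 3220 genes higher. SRF and its cofactors had a median of -0.06 over 6 genes, with 0 passing, and Elk4, a partner of SRF, had -0.44 (SE 0.20, adjusted p = 0.271). CREB, CRTC and MEF2 regulators had a median of -0.17 over 13 genes, with 0 passing, 3 lower and 1 higher at an unadjusted p under 0.05 and 6 lower and 1 higher in every mouse. Mef2d and Hdac4, a MEF2 factor and a deacetylase that represses these factors, had -0.39 (SE 0.12, adjusted p = 0.157) and -0.42 (SE 0.15, adjusted p = 0.191), and Hdac4 shares 22.4% of its exon sequence with other genes. Mef2c had 359, 200 and 369 CPM in CD61High of mice 1, 2 and 3, against 256, 136 and 304 CPM in CD61Low, higher in every mouse with overlapping groups (0.44, SE 0.13, adjusted p = 0.137). Kinases of the ERK1/2 cascade had a median of -0.16 over 10 genes, with 0 passing, 2 lower at an unadjusted p under 0.05 and 5 lower and 1 higher in every mouse. Rps6ka2, which encodes an RSK kinase that ERK activates, had 3.01, 30.5 and 1.99 CPM in CD61High of mice 1, 2 and 3, against 12.3, 41 and 4.51 CPM in CD61Low, highest in mouse 2 in both gates with overlapping groups (-1.18, SE 0.33, adjusted p = 0.126). Map2k1, which encodes the kinase MEK1, had -0.39 (SE 0.15, adjusted p = 0.207). Kinases of the ERK5 cascade, the known route to Klf2 and Klf4, had a median of -0.14 over 4 genes, with 0 passing and 1 lower at an unadjusted p under 0.05. Map3k3, which encodes the ERK5 pathway kinase MEKK3, had 56.9, 98.7 and 68.9 CPM in CD61High and 112, 142 and 104 CPM in CD61Low, without overlap (-0.70, SE 0.15, adjusted p = 0.0775).

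Genes reported as targets of KLF2 and KLF4 had a median of -0.46 over 5 tested, with 0 passing. S1pr1, the receptor that guides cells out of tissue into blood, had 67.6, 48.3 and 60.9 CPM in CD61High of mice 1, 2 and 3, against 90.8, 63.1 and 89.5 CPM in CD61Low. It was lower in every mouse, with overlapping groups (-0.46, SE 0.13, adjusted p = 0.129). Itgb7, an integrin gene that mature leukocytes also express, had -0.75 (SE 0.20, adjusted p = 0.116). Heat-shock genes, read as another rapid stress response, had a median of 0.15 over 7 tested, with 0 passing, and Hsph1 had 0.42 (SE 0.13, adjusted p = 0.154).

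**Figure D5:**
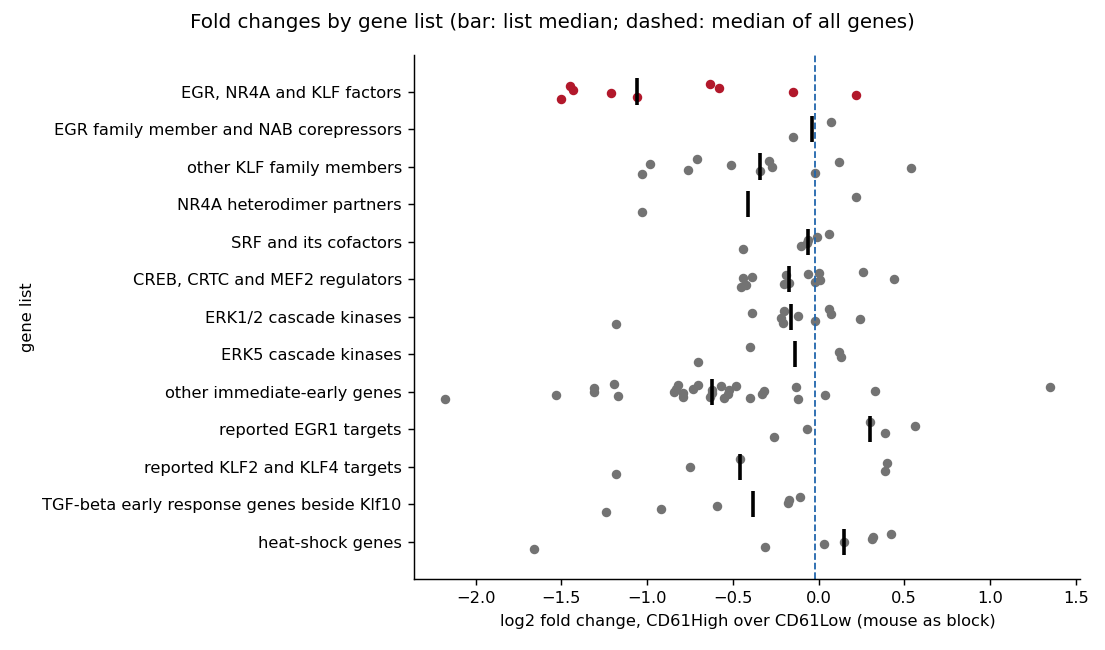
Log2 fold change of CD61High over CD61Low in the blocked edgeR fit (x axis) for each tested gene of 13 lists (y axis), with a black bar at the list median and a dashed line at the median of all genes (-0.02). The EGR, NR4A and KLF genes (red) have a median of -1.06 and the other immediate-early genes -0.62, and the medians of the SRF, CREB and ERK1/2 lists are -0.06, -0.17 and -0.16.

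The most abundant gene of each family was compared with 10618 other genes by the root mean square distance between log2 CPM values centred on the mean of the 6 libraries. The pattern nearest to Egr1 was that of Ly6a, which encodes the gate marker Sca1, at a distance of 0.13, ahead of Sdc4 at 0.19 and Synpo at 0.21. Ly6a had 119, 73.1 and 71.6 CPM in CD61High of mice 1, 2 and 3, against 282, 155 and 231 CPM in CD61Low, and fell in the blocked fit by 1.34 on the log2 scale (SE 0.16, adjusted p = 0.0446). Both genes thus had mouse 2 as the lowest CD61Low library. Nearest to Nr4a1 were Shisa5 and Jag1, both at 0.06, and Rnf41 at 0.07. Nearest to Klf10 were Tgif1, itself an early TGF-beta response gene, at 0.03, Insig1 at 0.06 and Hsd17b10 at 0.07. A gene that varies little lies near many others, so these distances are not comparable between the 3 genes.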

How the data were processed

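The authors deposited counts of reads per gene, not normalized, as 1 table per library and 1 table for the series. Per the labels' protocols, cDNA was made with SMART-Seq v4 and libraries with Nextera XT, which do not mark strand. STAR 2.7, MultiQC and edgeR are named in the submitters' processing notes; which build and annotation were counted is not given in the sources used here. All 55450 identifiers matched GENCODE M21 on GRCm38, which gave symbols and coordinates. The unstranded counts were used (49.9% to 50% of stranded counts on either strand), and none of the 10 genes overlaps another gene's exons. Values of the series table differed from the library tables in 0 cases. Lines without a gene stayed out: unmapped reads (4.36% to 10.9%), multimapping (10% to 15.6%), outside genes (2.88% to 4.21%) and ambiguous (3.55% to 4.37%). Each of the 15 pairs of libraries differed beyond sampling noise (chi-square of at least 40.6 per degree of freedom). Floors cover counting error only.

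The test was that of edgeR 4.0.16 under R 4.3.3 (quasi-likelihood, TMM, filterByExpr, two-sided, Benjamini-Hochberg over 15610 genes), called at an adjusted p under 0.05. The test was checked on simulated data with the same dispersion for all genes. Only the blocked check held a mouse effect, so it says nothing of the fit without a block where mice differ. Log2 CPM carries a prior count of 2, and a difference is CD61High minus CD61Low. The SE given for edgeR is the absolute log2 fold change over the square root of the quasi-likelihood F statistic. The SE of DESeq2 is its own fitted value. No source states a mouse covariate, so the fit had no block; a fit blocked on the mouse number is given beside it. The titles give libraries of a number the same mouse. Deviations from the group means correlated at 0.236, 0.806 and 0.761 within mice 1, 2 and 3, and at -0.823 to 0.374 between mice. DESeq2 1.42.0 and limma 3.58.1, other scalings, no filter, and fits without each library or mouse were alternatives. The genes and lists were chosen with earlier results of these data known. Named from each other list were up to 3 genes with the smallest unadjusted p in the blocked fit and a mean of at least 5 CPM. Likeness was computed for the most abundant gene of each family over genes of at least 5 CPM. Promoter windows are RefSeq's on GRCm38.p6.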

Additional observations from a re-analysis of the deposited data

How the results depend on the processing

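Across all genes, edgeR without a block called 0 genes and called 40 with the mouse as a block, 88 with relative log expression factors and the block, and 0 with library sizes alone, with or without the block. DESeq2 called 237 genes, or 1566 with the block, and limma voom with the block 489. Of the 9 tested EGR, NR4A and KLF genes, 0 were called by edgeR with or without the block, 1 by DESeq2, 5 by DESeq2 with the block, 3 by limma voom with the block, and 1 (Klf2) with relative log expression factors and the block. Leaving out single libraries or mice gave 0 to 742 called genes, and 0 to 3 of the named genes. The count was 133 without mouse 2, 742 without mouse 2 and with the block, and 7 without mouse 3 and with the block. The number lower in every mouse stayed at 5 under all 3 other scalings.

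Leaving out libraries or mice turned the sign of 3 genes. Klf2 ran from -2.61 (without CD61High of mouse 2) to 0.36 (without CD61Low of mouse 2). Both ends are unblocked fits that kept 1 library of mouse 2 without its pair. Blocked fits without mouse 1, 2 or 3 gave Klf2 -1.33, -1.25 and -1.06. Nr4a2 ran from -0.26 (without CD61High of mouse 1) to 0.61 (without CD61High of mouse 2). Egr3 ran from -1.24 (without mouse 1, with the block) to 0.10 (without CD61High of mouse 3). Without mouse 1 and without a block Egr3 had -0.82, and Nr4a2 had -0.14, or -0.12 with the block. The cause was not tested, beyond the levels of mouse 2 in Klf2. Egr1, Nr4a1 and Klf6 ran from -1.73 to -1.16, -0.74 to -0.43 and -1.45 to -0.77 over all alternatives, all in the same direction, and Klf4 from -2.51 to -0.09. Both ends of the Klf4 range are likewise unblocked fits without 1 library of mouse 2. Over the 9 genes and all alternatives, 194 values kept direction and side of the threshold, 14 passed it and 6 turned. Egr2 could not be tested without mouse 2, where it missed the filter. Depth limits Egr2, Egr3 and Nr4a3, whose libraries held 0 to 63 counts.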
